A study of Homo sapiens with 27 samples.

Results

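Transcript levels of IRS4 and of 9 other genes of insulin and insulin-like growth factor (IGF) signalling were described in 27 RNA-seq libraries of human cells that carry an ARID1A knockout. The 10 genes were taken by symbol from the 67130 genes counted, and all 10 passed the filter on low counts in every fit. They were chosen by gene function with expression results from these libraries already known, so their own levels and differences are given as a description without p-values. A further list of 77 genes of the same pathways was tested with p adjusted over all genes. That list too was put together with results of these libraries known, so its p-values describe single genes and are no independent evidence about the pathway.

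IRS proteins are the docking proteins that activated insulin and IGF receptors phosphorylate. They recruit the regulatory subunits of PI3-kinase, which activates AKT, and AKT keeps FOXO transcription factors out of the nucleus and promotes growth through mTOR. IRS1 and IRS2 are widely expressed, whereas IRS4 is found in few normal tissues and is known to be abundant in cells of the human embryonic kidney 293 lineage.

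The study concerns missense changes in the C-terminal region of ARID1A, a DNA-binding subunit of SWI/SNF chromatin remodelling complexes. All 9 groups carried an ARID1A knockout and held 3 libraries each. Of 293T, a human embryonic kidney line, there were 6 groups: the knockout alone (KO), and the knockout with stably expressed ARID1A in the wild-type form (WT) or with the substitution V2084D, G2087E, G2087R or K2025E. Labelled as Huh7, a line from a hepatocellular carcinoma, there were 3 groups. They were the knockout with WT ARID1A, with V2084D ARID1A, and with V2084D ARID1A plus knockdown of STUB1 (shSTUB1). STUB1 encodes a ubiquitin ligase. ARID1A was delivered by lentivirus with a Flag tag, and there was no Huh7 group with the knockout alone. The labels do not say whether a group is 1 clone or a pool, nor whether its libraries come from separate cultures. A clone or culture and the ARID1A form therefore cannot be told apart, and the p-values reflect no more than the variation from library to library.

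Library totals were 33429483 to 55539529 counts for 293T and 59124374 to 79915177 for Huh7. ARID1A was at 119 to 194 CPM (counts scaled to 1000000 per library) in the 293T KO libraries and at 5727 to 116310 in 13 of the 15 libraries labelled as expressing it in 293T. WT libraries were at 5727, 9391 and 63182 CPM, V2084D at 42886 to 116310, G2087E at 44023 to 85877 and K2025E at 13598 to 21672. The form and the level of ARID1A therefore cannot be told apart in contrasts of these forms with WT in 293T. G2087R libraries 1 and 2 were at 294 and 326 CPM, above the KO libraries and far below those 13. In the 9 libraries labelled Huh7, ARID1A was at 187 to 390 CPM, so the labelled overexpression was not seen there at the size measured in 293T. Among these, ARID1A was at 329, 354 and 390 CPM in WT and at 263, 270 and 211 CPM in V2084D libraries, without overlap. The V2084D minus WT difference of ARID1A was -0.55 (log2, SE 0.18, edgeR adjusted p = 0.0325). The form and the level of ARID1A therefore cannot be told apart in that comparison. STUB1 was at 72.9 ± 9.20 CPM (SD, n = 3) in shSTUB1 libraries and 261 ± 25.03 in V2084D libraries. None of 15 liver genes, ALB and AFP among them, exceeded 10 CPM in any library labelled Huh7. Their summed level there was 2.03 to 5.45 CPM, with APOH at 0, against 2.95 to 10.5 CPM in 293T, with AFP and FGA at 0. Of 8 neural and kidney genes typical of 293 cells, 7 had a mean above 1 CPM in libraries with the Huh7 label and 8 in 293T, and their summed levels were 235 to 318 and 223 to 339 CPM. The markers thus did not bear out the hepatocyte identity of the libraries labelled Huh7, and these are named here by their label only. The names Huh7 and line stand for the labels throughout. In 293T, K2025E libraries 2 and 3 stood apart on the first principal component, with scores of 109 and 70.6 against -50.0 to 42.8 for the other 16 libraries.

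IRS4 lies on the X chromosome at chrX:108732482-108736409 (GRCh38, minus strand), and its annotated transcript is a single exon of 3928 bases. The 250 bases before the RefSeq start of IRS4, and before those of its relatives IRS1 and IRS2, are shown because the 3 substrates share a function while their levels differed widely. Sequences are from RefSeq on GRCh38.p14, on the minus strand for all 3 genes and written 5′ to 3′, with CpG dinucleotides in capitals. Where a gene had several starts, the most upstream one was used. The windows are chrX:108736564-108736813, chr2:226799821-226800070 and chr13:109786584-109786833.

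IRS4: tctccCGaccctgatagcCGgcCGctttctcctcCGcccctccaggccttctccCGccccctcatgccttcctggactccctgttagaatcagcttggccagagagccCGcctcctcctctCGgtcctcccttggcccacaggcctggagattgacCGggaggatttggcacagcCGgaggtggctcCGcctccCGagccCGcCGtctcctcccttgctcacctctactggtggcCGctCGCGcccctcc

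IRS1: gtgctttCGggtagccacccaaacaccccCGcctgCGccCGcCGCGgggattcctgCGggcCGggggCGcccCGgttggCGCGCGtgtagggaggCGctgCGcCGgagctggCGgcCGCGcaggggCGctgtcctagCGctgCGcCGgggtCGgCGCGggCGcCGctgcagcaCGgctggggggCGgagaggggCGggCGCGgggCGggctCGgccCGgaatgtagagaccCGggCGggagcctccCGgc

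IRS2: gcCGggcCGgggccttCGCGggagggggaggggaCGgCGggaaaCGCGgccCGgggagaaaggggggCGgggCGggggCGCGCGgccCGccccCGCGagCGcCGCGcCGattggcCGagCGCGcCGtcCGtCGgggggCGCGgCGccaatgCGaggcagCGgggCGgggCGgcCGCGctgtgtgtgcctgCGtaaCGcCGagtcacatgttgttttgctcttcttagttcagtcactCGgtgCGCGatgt

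The IRS4 window held 16 CpG dinucleotides, against 39 for IRS1 and 42 for IRS2, with a median of 10 over 27326 RefSeq promoters of the same length. Its GC content was 68.0%, against 80.8% for IRS1 and 76.4% for IRS2. The GC box GGGCGG, searched on both strands, was present 2 times before IRS4, 4 times before IRS1 and 5 times before IRS2, and 42.2% of all promoters held it. The motif CCAAT was present 2 times before IRS2 and not in the IRS1 and IRS4 windows, with 33.0% of promoters holding it. The TATA box TATAAA (in 11.2% of promoters), the E-box CACGTG (6.47%), the AP-1 motif TGACTCA (4.15%), the FOXO motif GTAAACA (3.02%) and the cAMP response element TGACGTCA (1.75%) were absent from all 3 windows. Of the 10 genes, 9 were matched in the promoter table and IGF2 was not.

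IRS4 was the most abundant of the 10 genes per transcript length in 293T and in Huh7 WT libraries. Its mean level in CPM per kilobase of merged exons (CPM per kb) was 76.6 ± 12.2 (SD, n = 3) in 293T KO libraries and 112 ± 4.78 in Huh7 WT libraries. Averaged over the libraries of a line, it exceeded 97.3% of 19897 protein-coding genes in 293T and 94.9% in Huh7. The Huh7 average describes no single group, since IRS4 had a mean of 160 CPM but a median of 22.6 CPM over those 9 libraries. The 9 other genes exceeded 43% to 77.4% in 293T and 43.6% to 74.4% in Huh7. In Huh7 V2084D libraries, IRS4 at 4.77 ± 0.825 CPM per kb was below GRB10 at 9.26 ± 0.373 and IGF2R at 7.06 ± 0.484. IGF1R had a mean of 5.37 ± 0.846 there, and its libraries overlapped those of IRS4. IRS1 and IRS2 were far lower than IRS4 in 293T, at 1.39 ± 0.233 and 1.79 ± 0.351 CPM per kb in 293T KO libraries. Of the summed CPM per kb of IRS1, IRS2 and IRS4, IRS4 made up group means of 94.9% to 96.5% in the 6 groups of 293T.

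In libraries labelled Huh7, IRS4 was high with WT ARID1A and low in both V2084D groups. It was at 431, 463 and 431 CPM in WT libraries. With V2084D it was at 19.3, 21.6 and 15.2 CPM, and with V2084D and shSTUB1 at 22.6, 14.4 and 23.5 CPM. The WT libraries lay far above the 6 others without overlap, and the 2 V2084D groups overlapped each other. The V2084D minus WT difference was -4.58 (log2, SE 0.20), a 24.0-fold lower level. It was -4.48 (SE 0.20) for shSTUB1 minus WT and 0.11 (SE 0.17) for shSTUB1 minus V2084D. These comparisons share libraries pairwise. Only 1 of 12703 protein-coding genes with a mean log2 CPM of at least 1 had a lower V2084D minus WT difference than IRS4. Among all 22510 tested genes, IRS4 ranked 58 from the lowest. Since IRS4 was chosen with results of these libraries known, nothing is read from its rank. Fewer cells that express a gene and less RNA per cell cannot be told apart in bulk libraries.

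**Figure D1:**
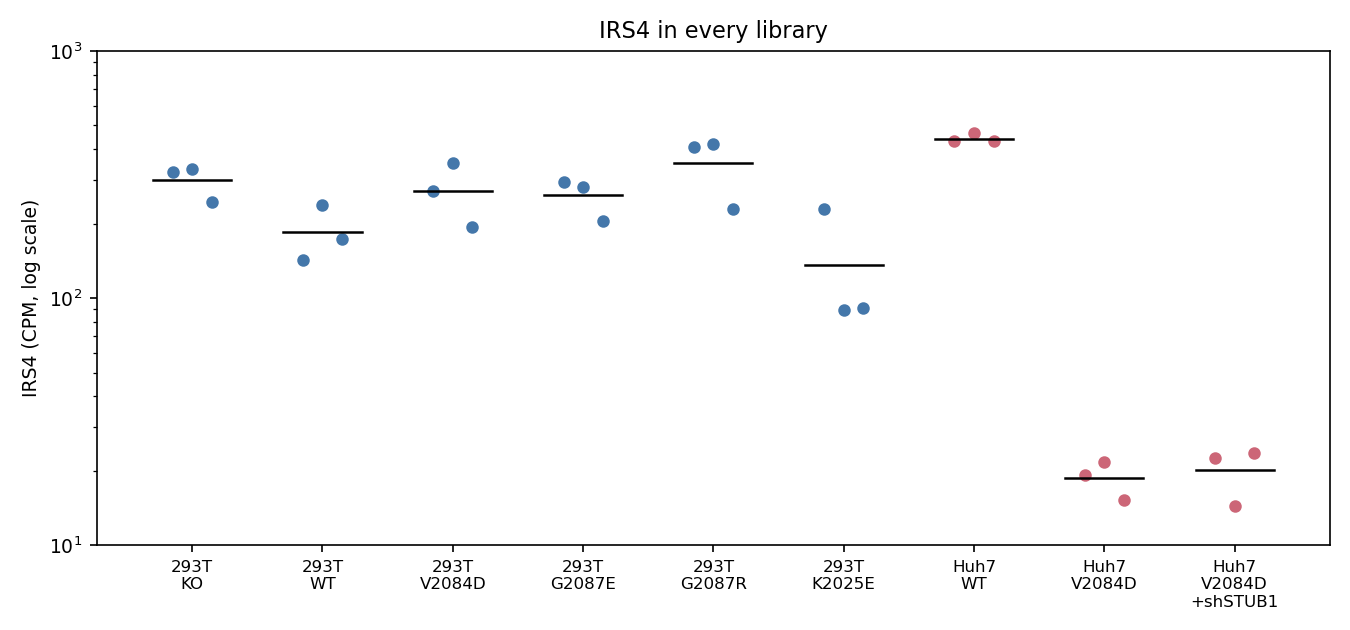
IRS4 in each of the 27 libraries, in CPM on a log axis, with 293T groups in blue and groups labelled Huh7 in red. Points are libraries and lines are group means; the 3 Huh7 WT libraries lie at 431 to 463 CPM and the 6 libraries with V2084D in that line at 14.4 to 23.5 CPM.

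The makeup of the IRS transcripts differed accordingly among the groups labelled Huh7. IRS4 made up 97.5% ± 0.153 (SD, n = 3) of the summed CPM per kb of the 3 substrates in WT libraries, 54.6% ± 2.35 with V2084D and 61.8% ± 3.36 with V2084D and shSTUB1. The sum itself was 115 ± 4.81 CPM per kb in WT libraries, 8.70 ± 1.19 with V2084D and 8.25 ± 1.69 with shSTUB1. The libraries of the first group did not overlap those of the others in either measure. The IRS1 and IRS2 increases described next were small beside the loss of IRS4 counts.

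The antisense transcript AL035425.1 overlaps IRS4, and whether reads were assigned by strand is not stated. Its group means were 3.24 CPM in Huh7 WT and 1.85 CPM in Huh7 V2084D libraries, a difference of -0.84 (SE 0.25; edgeR, adjusted p = 0.0214). The nearest protein-coding neighbour, COL4A5, which encodes a basement membrane collagen chain, lies 34937 bases away. It fell by 0.27 (log2, SE 0.08; adjusted p = 0.0236), from a mean of 28.2 to 23.8 CPM. COL4A6, another collagen chain 292985 bases away, rose by 0.67 (SE 0.13; adjusted p = 0.00175). Of 745 tested genes of the X chromosome, 163 rose and 159 fell in this comparison, with a median difference of 0.04. IRS4 was at -4.58 in this comparison, and a part played by its region or chromosome was not tested.

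The same substitution went with another direction for IRS4 in 293T. There, IRS4 was at 142, 238 and 173 CPM with WT ARID1A and at 269.7, 350.3 and 195 CPM with V2084D. The groups overlapped, and the difference was 0.56 (log2, SE 0.33). ARID1A levels also differed between these 293T groups, as given above, so form and level cannot be told apart. The V2084D minus WT difference in Huh7 minus that in 293T was -5.12 (SE 0.45). Among the 10 genes, 1 passed the threshold for this difference between the lines, IRS4, against 9.72% of 24546 genes. Cell line, deposited table and ARID1A level moved together here and cannot be told apart. Over both lines, the IRS4 group means in descending order were Huh7 WT, then G2087R, KO, V2084D, G2087E, WT and K2025E of 293T, then Huh7 shSTUB1 and Huh7 V2084D. Neighbours in this order overlapped, except that Huh7 WT lay above G2087R and K2025E of 293T above Huh7 shSTUB1.

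In 293T, IRS4 was at 324, 333 and 246 CPM in KO libraries, above all 3 WT libraries. The WT minus KO difference was -0.70 (log2, SE 0.33). With G2087E it was at 293, 282 and 205 CPM, and with G2087R at 409, 418 and 230.2 CPM, both overlapping KO. The G2087R libraries with 409 and 418 CPM are those with low ARID1A, above KO and far below the other libraries labelled as expressing it. The G2087R minus WT difference was 0.93 (SE 0.33) with all 3 libraries and 0.33 without those 2, and that from KO was 0.23 and -0.38. K2025E libraries held 229, 89.8 and 90.9 CPM, all below KO, with a difference of -1.14 (SE 0.33). The 2 lowest are the libraries that stood apart on the first principal component, and without them the difference was -0.41.

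Upstream of the IRS proteins, the insulin receptor gene INSR differed among all 3 groups labelled Huh7. INSR was at 24.7, 23.9 and 24.6 CPM with WT ARID1A, at 33.4, 34.5 and 29.3 CPM with V2084D, and at 17.6, 16.0 and 20.4 CPM with V2084D and shSTUB1. The 3 groups did not overlap, with V2084D highest and shSTUB1 lowest. Of all 22510 tested genes, V2084D lay above WT without overlap in 29.7% and below in 25.7%. The shares were 18.2% and 18.2% for shSTUB1 against V2084D, and 29.3% and 26% for shSTUB1 against WT. They are the background for every statement on overlap among groups labelled Huh7. The differences were 0.38 (log2, SE 0.10) for V2084D minus WT, -0.85 (SE 0.10) for shSTUB1 minus V2084D and -0.47 (SE 0.10) for shSTUB1 minus WT. INSR had the largest of the 10 differences between shSTUB1 and V2084D.

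IGF1R, which encodes the receptor of IGF1 and IGF2, was at 79.0 to 86.5 CPM in Huh7 WT, 61.9 to 84.9 in V2084D and 53.0 to 75.7 in shSTUB1 libraries. V2084D overlapped both other groups, while shSTUB1 lay below WT with a difference of -0.37 (SE 0.14). IGF2R encodes a receptor that takes up IGF2 for degradation, and its ranges were 104 to 112, 116 to 133 and 75.6 to 128 CPM. Its V2084D libraries lay above WT by 0.20 (SE 0.15), and the shSTUB1 libraries spread across both.

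The ligand gene IGF2 was at 5.68, 5.50 and 7.69 CPM in Huh7 WT libraries, at 12.0, 13.9 and 12.5 CPM with V2084D and at 9.58, 7.96 and 9.20 CPM with shSTUB1. The 3 groups did not overlap. The V2084D minus WT difference was 1.001 (log2, SE 0.15) and the shSTUB1 minus V2084D difference -0.53 (SE 0.15). The genes INS-IGF2 and MIR483 overlap IGF2 on its strand and were listed at 0 in every library, so reads they share with IGF2 could have been assigned to it.

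Of the other substrates, IRS2 followed the same order of groups as IGF2. It was at 9.13, 10.01 and 9.66 CPM in Huh7 WT, 14.6, 16.7 and 13.6 CPM in V2084D and 11.6, 10.7 and 12.3 CPM in shSTUB1 libraries, again with no overlap. The differences were 0.62 (log2, SE 0.11) for V2084D minus WT and -0.38 (SE 0.11) for shSTUB1 minus V2084D. IRS1 was at 15.3 to 17.8, 19.1 to 22.7 and 13.3 to 18.7 CPM in the same groups, with V2084D above both others by 0.31 and 0.30 (SE 0.13 for both).

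PIK3R3, a regulatory subunit of PI3-kinase, went the opposite way. It was at 34.2, 38.2 and 36.0 CPM in Huh7 WT, 27.2, 28.9 and 28.1 CPM in V2084D and 36.7, 34.1 and 37.4 CPM in shSTUB1 libraries. V2084D lay below both other groups without overlap, by -0.39 (log2, SE 0.07) from WT, and shSTUB1 minus V2084D was 0.36 (SE 0.07). PIK3R1, the widely expressed regulatory subunit, ranged from 18.9 to 34.1 CPM over the 9 libraries with overlap among all groups. GRB10, an adaptor that inhibits the insulin receptor, was at 77.9 to 79.4, 86.7 to 93.8 and 91.5 to 111 CPM. Its V2084D and shSTUB1 libraries lay above WT by 0.18 and 0.35 (SE 0.08 for both).

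**Figure D2:**
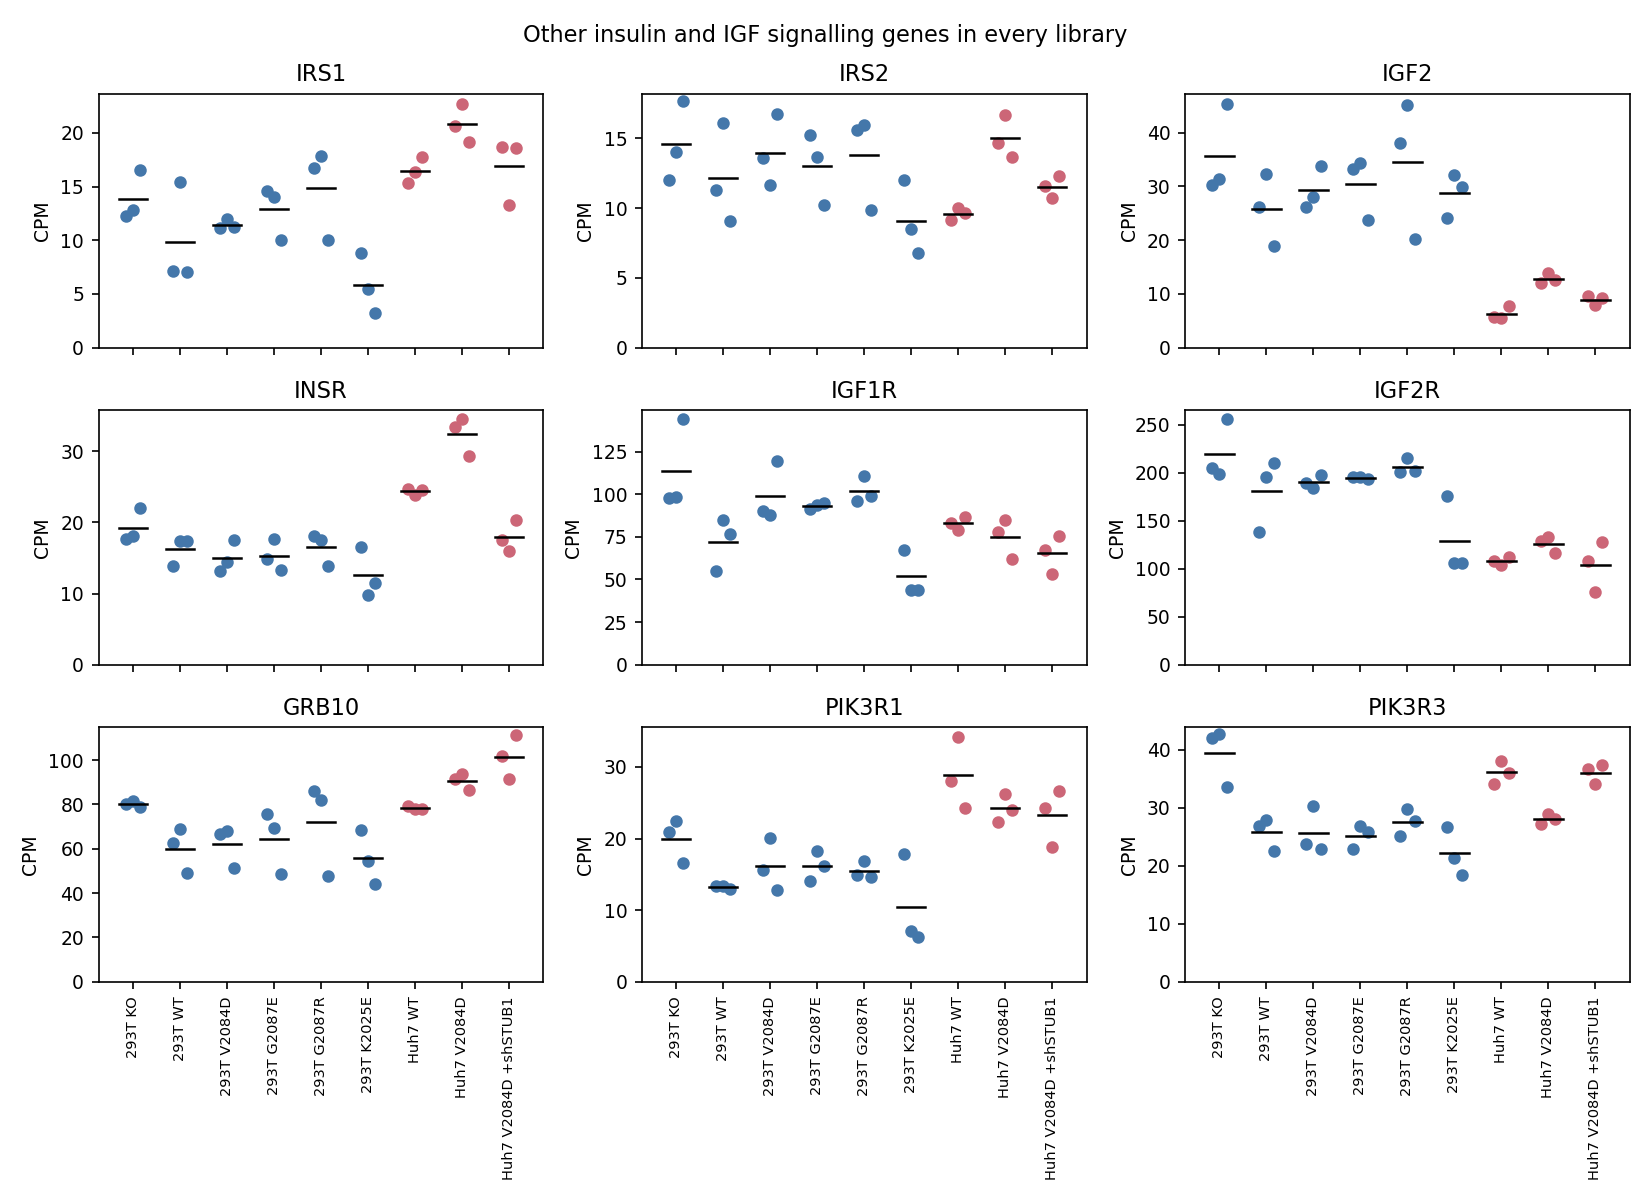
The 9 other genes in each of the 27 libraries, in CPM on linear axes from 0, with points for libraries and lines for group means (293T in blue, libraries labelled Huh7 in red). In Huh7, INSR, IGF2 and IRS2 are highest and PIK3R3 lowest with V2084D, while in 293T the KO libraries are highest for PIK3R3.

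Counted against the threshold of an adjusted p below 0.05, 5 of the 10 genes differed between V2084D and WT in Huh7 (IGF2, IRS2 and INSR higher, IRS4 and PIK3R3 lower), where 42% of 22510 genes did. Fitted on these 6 libraries alone, the count was 8, and the share of all genes in that fit is not given here. Between shSTUB1 and V2084D 4 of 10 differed (PIK3R3 higher, INSR, IGF2 and IRS2 lower) and 21.5% of all genes. Between shSTUB1 and WT 5 of 10 differed (IGF2 and GRB10 higher, IRS4, INSR and IGF1R lower) and 45.1% of all genes. The median of the 10 differences was 0.19, -0.24 and -0.06 in these comparisons, and the median over all genes 0.03, -0.0035 and 0.02. Since the 10 genes were chosen with results known, nothing is read from these counts. The shSTUB1 minus V2084D count was 2 without Huh7 V2084D library 1, without V2084D library 2 or without shSTUB1 library 1. The shSTUB1 minus WT count was 3 without Huh7 WT library 1, WT library 2 or shSTUB1 library 1.

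In 293T, all 10 genes had lower fitted levels with WT ARID1A than in the KO, from -0.24 for INSR to -0.70 for IRS4 (median -0.47, median over all genes 0.01). In 6 of the 10 the WT libraries lay below the KO libraries without overlap, as in 8.84% of all genes. Nothing is read from this count, since the 10 genes were chosen with results known. In edgeR none passed the threshold, as for 0% of 23201 genes. Before adjustment, p was below 0.05 for 3 of the 10 and for 2544 of all genes. With DESeq2, 0 of the 10 and 80 of all genes passed. PIK3R3 was at 42.0, 42.7 and 33.5 CPM in KO libraries and at 18.4 to 30.3 CPM in the 15 libraries of the other 293T groups. It thus lay below KO without overlap for all 5 ARID1A forms, by -0.61 for WT, -0.62 for V2084D, -0.65 for G2087E, -0.51 for G2087R and -0.83 for K2025E (log2, SE 0.18 for each). G2087R libraries 1 and 2, whose ARID1A was low though above KO, were at 25.1 and 29.8 CPM for PIK3R3. The 5 differences share the KO libraries.

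For V2084D, G2087E and G2087R against KO, 0 of the 10 genes and 0% of all genes passed in edgeR. Before adjustment, p was below 0.05 for 1120, 1314 and 1001 of all genes and for 1 of the 10 each time. DESeq2 called 29, 38 and 24 genes, none of them among the 10. For V2084D and G2087E against WT the counts were again 0 of 10 and 0% of all genes, and p before adjustment was below 0.05 for 467 and 475 genes and for 1 and 0 of the 10. DESeq2 called 15 and 16 genes and 0 of the 10. For G2087R and for K2025E against WT, 0 of 10 and 0.00431% of all genes passed. Before adjustment, p was below 0.05 for 1032 and 1919 genes and for 2 and 3 of the 10. With DESeq2, 27 and 20 genes and 0 of the 10 passed. Without K2025E library 1, the K2025E minus WT count was 2 of 10. The count over all genes in this contrast also varied among alternative settings, as given at the end, so nothing is read from this count.

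K2025E gave the one 293T contrast with KO in which some of the 10 genes passed. IRS1, IRS4, IGF1R, PIK3R1, PIK3R3 and IGF2R were lower, which is 6 of 10, where 12.9% of all genes passed. IRS1 was at 12.3, 12.8 and 16.5 CPM in KO and at 8.83, 5.42 and 3.25 CPM in K2025E libraries, a difference of -1.25 (log2, SE 0.34). IGF1R was at 97.7, 98.5 and 144 CPM in KO and at 67.5, 44.1 and 44.1 CPM in K2025E libraries, a difference of -1.13 (SE 0.21). For both genes K2025E libraries 2 and 3 were the lowest. The count fell to 0 without K2025E library 2, to 1 without library 3, to 0 without both, to 3 without KO library 1 or 2, and to 1 when the 6 libraries were fitted alone. The IRS1 and IGF1R differences without both libraries were -0.66 and -0.76.

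**Figure D3:**
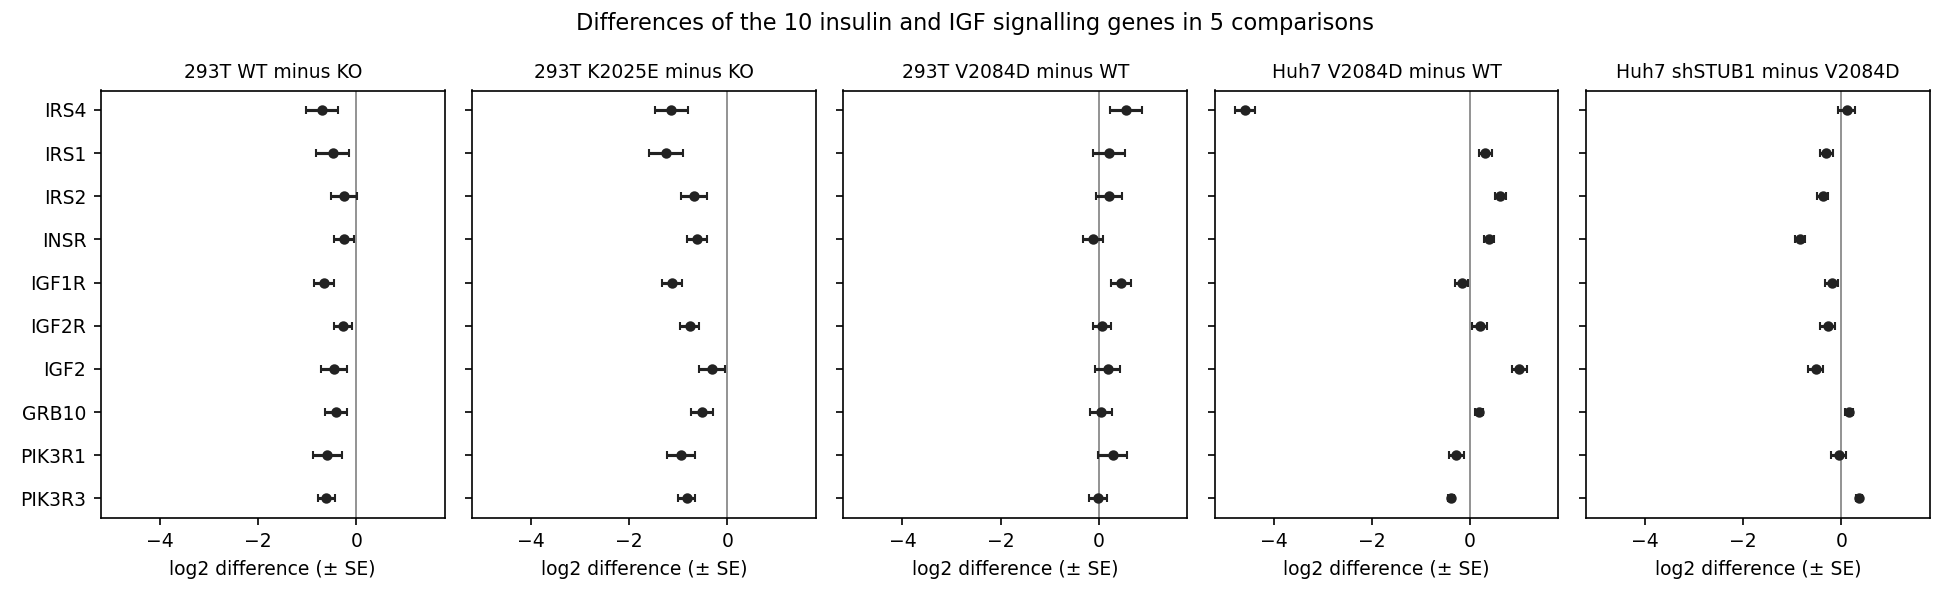
Fitted log2 differences of the 10 genes in 5 comparisons, with bars of 1 SE on either side. IRS4 is at -4.58 in Huh7 V2084D minus WT, beyond the -0.39 to 1.001 of the 9 other genes there, while all 10 lie below 0 in 293T WT minus KO and K2025E minus KO.

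Compared between the lines, IRS4 was higher in Huh7 than in 293T with WT ARID1A, by 1.26 (log2, SE 0.31), and lower with V2084D, by -3.86 (SE 0.34). IGF2 was lower in libraries labelled Huh7 with both forms, at 5.50 to 7.69 against 19.0 to 32.4 CPM with WT and 12.0 to 13.9 against 26.1 to 33.8 CPM with V2084D. The differences were -2.04 (SE 0.25) and -1.19 (SE 0.24). IGF2R was lower as well (-0.75 and -0.59, SE 0.18), and INSR was higher (0.59 and 1.10, SE 0.18). Of the 10 genes 6 passed the threshold with WT, where 23% of 24546 genes did, and 6 with V2084D, where 31.5% did. The lines were deposited in separate tables, and the difference between tables and that between lines cannot be told apart. Line means the label here, since the markers did not bear out the hepatocyte identity of libraries labelled Huh7.

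Across the 18 libraries of 293T, the log2 CPM of the 9 other genes correlated with that of IRS4 at r from 0.32 for IGF2 to 0.89 for IRS1, given as a description. Without K2025E libraries 2 and 3, r over the 16 others was 0.78 for IRS1, 0.73 for GRB10, 0.59 for PIK3R1, 0.57 for IGF2 and 0.26 for INSR. IRS4 itself had r = -0.65 with the first principal component. For the 9 other genes this r ranged from -0.82 for IGF2R to 0.23 for IGF2, and PIK3R1 (-0.81) and IGF1R (-0.75) were also further from 0 than IRS4. The 5 protein-coding genes most like IRS4 over the 18 libraries were VCAN (r = 0.97), EGFR, PALM2AKAP2, AMOT and TBC1D4 (r = 0.96 each). Without the 2 libraries their r was 0.91 to 0.92. Of the 12625 genes compared, 13.1% had r above 0.7. In libraries labelled Huh7, none of these 5 genes passed the threshold between V2084D and WT, with differences from -0.35 for VCAN to 0.24 for EGFR (edgeR, adjusted p = 0.119 and 0.333). Between shSTUB1 and WT, AMOT fell by 1.05 (SE 0.14; adjusted p = 0.000127), from a mean of 165 to 81.0 CPM, and TBC1D4 by 0.20 (SE 0.07; adjusted p = 0.0408), against -4.48 for IRS4. The steps differed, since AMOT was at -0.23 for V2084D minus WT and -0.82 (SE 0.14) for shSTUB1 minus V2084D. IRS4 was at -4.58 and 0.11 in these 2 comparisons. The libraries labelled Huh7 fell into 2 clusters by IRS4, so no correlation is given over them.

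Transcripts of the FOXO factors and of most tested genes they are known to regulate were higher with V2084D than with WT ARID1A in Huh7. The activity of FOXO proteins was not measured, and a link to the IRS4 level was not tested. Of 9 listed FOXO-regulated genes 8 were tested, and G6PC had at most 2 counts in any library labelled Huh7. All 3 FOXO genes and 7 of 8 tested FOXO-regulated genes rose and none of these 11 fell, where 42% of all genes passed in either direction. FOXO3 was at 43.5, 45.8 and 44.1 CPM in WT and at 79.5, 84.6 and 79.0 CPM in V2084D libraries, an increase of 0.84 (log2, SE 0.07; adjusted p = 9.9e-06). FOXO4 rose by 0.40 (SE 0.10; adjusted p = 0.00809). FOXO1 rose by 0.22 (SE 0.08; adjusted p = 0.0495), a call lost in 10 of 11 alternative settings. The call of SESN1, 1 of the 7, was lost in 8 of the 11 settings. The median of the 8 FOXO-regulated genes was 0.46, against 0.03 over all genes.

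PCK1, the rate-limiting enzyme of gluconeogenesis, rose from 0.991, 0.857 and 1.34 to 5.23, 3.85 and 3.82 CPM, by 1.99 (log2, SE 0.22; edgeR, adjusted p = 4.94e-05). PDK4, which inhibits the pyruvate dehydrogenase complex, rose by 1.24 (SE 0.21; adjusted p = 0.000715). BCL6, a transcriptional repressor, rose by 1.19 (SE 0.17; adjusted p = 0.000258), and the cyclin gene CCNG2 by 0.51 (SE 0.10; adjusted p = 0.00177). The V2084D libraries lay above the WT libraries for each of these 4 genes. SESN3 did not pass (0.06, adjusted p = 0.736).

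Between shSTUB1 and V2084D some of these genes were lower. FOXO1 fell by 0.38 (log2, SE 0.08; adjusted p = 0.00688) and FOXO4 by 0.47 (SE 0.10; adjusted p = 0.00833), while FOXO3 stood at 0.09 (SE 0.07; adjusted p = 0.423). Of the 8 FOXO-regulated genes 4 fell and 1, SESN1, rose, where 21.5% of all genes passed in either direction. CCNG2 fell by 0.73 (SE 0.10; adjusted p = 0.000769), from 19.4 to 20.9 CPM down to 11.2 to 13.4 CPM. CITED2, a transcriptional coregulator, fell by 0.68 (SE 0.10; adjusted p = 0.00112) and BCL6 by 0.68 (SE 0.17; adjusted p = 0.0167). The call of BCL6 was lost without V2084D library 1 or 2. PCK1 was at 2.72, 3.11 and 3.21 CPM with shSTUB1, -0.51 from V2084D (SE 0.21; adjusted p = 0.117). The V2084D minus WT and shSTUB1 minus V2084D comparisons both use the V2084D libraries, so opposite directions in them are not independent. Between shSTUB1 and WT, 5 of the 8 FOXO-regulated genes were higher and 2 lower, with a median of 0.39. Of the 3 FOXO genes, 1 was higher and 0 were lower there, where 45.1% of all genes passed in either direction.

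**Figure D4:**
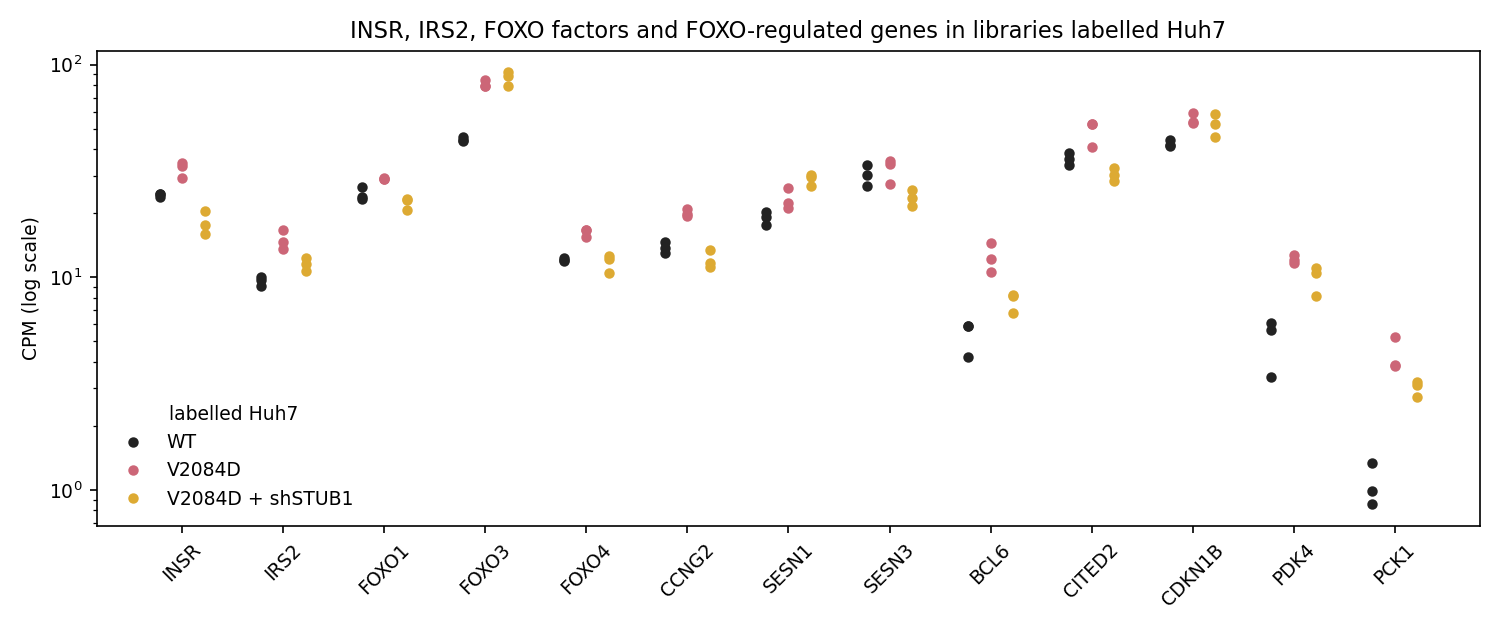
INSR, IRS2, the 3 FOXO genes and 8 FOXO-regulated genes in the 9 libraries labelled Huh7, in CPM on a log axis, with a point for each library (WT black, V2084D red, V2084D with shSTUB1 yellow). PCK1 is at 0.857 to 1.34 CPM in WT and 3.82 to 5.23 CPM in V2084D libraries, and FOXO3 stays at 79.2 to 92.0 CPM with shSTUB1.

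The kinase cascade below PI3-kinase moved in both directions with V2084D in Huh7, with 5 of 19 genes higher and 6 lower than with WT, where 42% of all genes passed in either direction. EIF4EBP1, a repressor of cap-dependent translation that mTOR inactivates, was at 104, 99.3 and 112 CPM in WT and at 269.6, 280.0 and 300.0 CPM in V2084D libraries, a rise of 1.41 (log2, SE 0.09; edgeR, adjusted p = 1.32e-06). DEPTOR, an inhibitor of mTOR, rose by 1.33 (SE 0.13; adjusted p = 1.75e-05) and MLST8, a subunit of mTOR complexes, by 0.61 (SE 0.08; adjusted p = 0.000162). AKT1 fell by 0.57 (SE 0.06; adjusted p = 3.51e-05) and fell further with shSTUB1, by 0.60 (SE 0.06; adjusted p = 0.000179). Its levels were 219.6 to 238, 149 to 160.4 and 101 to 105 CPM in the 3 groups, which did not overlap.

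Among PI3-kinase subunits of the wider list, PIK3CA and PIK3CD, which encode catalytic subunits, rose with V2084D. The rise was 0.55 (log2, SE 0.11; edgeR, adjusted p = 0.00253) for PIK3CA and 0.53 (SE 0.14; adjusted p = 0.00999) for PIK3CD. With shSTUB1, PIK3CA fell by 0.91 (SE 0.11; adjusted p = 0.000503) and PIK3CD by 0.86 (SE 0.14; adjusted p = 0.00186). PIK3R2, a regulatory subunit like PIK3R3, fell with V2084D by 0.53 (SE 0.07; adjusted p = 0.000103). Of 13 adaptors 3 rose and 3 fell with V2084D, near the 42% of all genes that passed. Among them GAB2, a docking protein, rose by 1.17 (SE 0.20; adjusted p = 0.000859).

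Of 6 tested IGF binding proteins 2 rose and 0 fell with V2084D in Huh7, and of 3 genes for proteins that bind the IGF2 mRNA 2 fell and 0 rose. The other genes of both groups did not pass, and 42% of all genes passed in either direction. IGFBP5, a secreted IGF-binding protein, was at 31.1, 37.2 and 37.0 CPM in Huh7 WT, 66.9, 66.2 and 67.0 CPM in V2084D and 34.4, 28.1 and 39.9 CPM in shSTUB1 libraries. It rose by 0.90 (log2, SE 0.12; edgeR, adjusted p = 0.000132) and fell by 0.97 (SE 0.12; adjusted p = 0.000452). IGFBP7 rose in both steps, by 0.67 (SE 0.17; adjusted p = 0.00798) with V2084D and by 0.98 (SE 0.16; adjusted p = 0.00241) with shSTUB1. IGF2BP1 and IGF2BP3, which encode RNA-binding proteins that bind the IGF2 mRNA, fell with V2084D, where IGF2 was higher. IGF2BP1 fell by 0.73 (SE 0.09; adjusted p = 0.000127), and the decrease of IGF2BP3 was smaller at -0.48 (SE 0.09; adjusted p = 0.00167). SLC2A1, the basal glucose transporter, rose by 0.62 (SE 0.08; adjusted p = 9.84e-05).

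Over the whole wider list, 40 of 74 tested genes passed between V2084D and WT in Huh7, 25 higher and 15 lower, with a median difference of 0.12. Between shSTUB1 and V2084D 24 passed, 5 higher and 19 lower (median -0.16), and between shSTUB1 and WT 50, 20 higher and 30 lower (median -0.17). The shares of all genes given above are the background for these counts. Without V2084D library 1, 14 passed between shSTUB1 and V2084D.

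In 293T the wider list passed the threshold in K2025E minus KO, with 5 of 73 genes higher and 18 lower, where 12.9% of all genes passed. In the 8 other 293T contrasts none passed with all libraries, but without K2025E library 1 the count in K2025E minus WT was 13. Nothing is read from that count, since the count over all genes also varied among alternative settings, as given at the end. In K2025E minus KO, FOXO1 fell by 1.09 (log2, SE 0.22, edgeR adjusted p = 0.00697) and FOXO3 by 1.08 (SE 0.22, adjusted p = 0.00787). SESN3, a stress-response regulator, fell by 1.49 (SE 0.24; adjusted p = 0.00674) and CCNG2 by 1.16 (SE 0.18; adjusted p = 0.00674). IGF2BP1, IGF2BP2 and IGF2BP3 all fell, by 0.63, 0.54 and 0.96 (adjusted p = 0.0263, 0.0439 and 0.0272). EIF4EBP1 rose by 1.02 (SE 0.26; adjusted p = 0.0194). The count of 23 was 0 without K2025E library 2 or without libraries 2 and 3, 5 without library 3, 8 without KO library 1, 7 without KO library 2 and 4 when the 6 libraries were fitted alone. In the 8 other 293T contrasts, edgeR called 0 wider list genes. Before adjustment, 1 to 14 had a p below 0.05, and DESeq2 called 0 or 1.

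Between the lines, 17 of 74 wider list genes passed with WT ARID1A, where 23% of all genes did, and 33 with V2084D, where 31.5% did. For the V2084D minus WT difference between the lines 6 of 74 passed, 4 higher and 2 lower in Huh7, where 9.72% of all genes did. The 6 were EIF4EBP1, DEPTOR, GAB2, CCNG2, IGF2BP1 and RPTOR. With WT ARID1A, IGFBP5 was higher in Huh7 by 1.97 (log2, SE 0.19; edgeR, adjusted p = 1.24e-07) and the adaptor gene GRB7 lower by -1.68 (SE 0.30; adjusted p = 0.000287). The count with WT was 11 without 293T WT library 3 or without any 1 of the 3 Huh7 WT libraries.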

How the data were processed

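RNA was sequenced from 27 libraries labelled 293T or Huh7, 3 in each of 9 groups, which were assigned from the sample labels. Trizol and a Qiagen column kit gave the total RNA and the NEBNext Ultra II kit the libraries, per the labels. The authors deposited raw counts per gene in 1 table for each line. Per the submitters' processing notes, the build was GRCh38 and edgeR was used; the aligner, the counting tool and the strand setting are not given in the sources used here. Whole-number counts of all 27 columns were used.

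Counts were fitted in R 4.3.3 with edgeR 4.0.16 (TMM scaling, quasi-likelihood F test) in 1 fit for each line, and in a joint fit of both for comparisons between lines. Filtering with filterByExpr (minimum count 10, minimum total 15) left 23201, 22510 and 24546 genes, with biological coefficients of variation of 30.9%, 24.8% and 30.3%. Benjamini-Hochberg adjusted p below 0.05 was the threshold. The standard error of a log2 difference was obtained as its size over the root of its F statistic. Levels are CPM with the TMM scaling of the joint fit, log2 CPM used a prior count of 2, and levels between genes were compared per kilobase of merged exons of GENCODE 29. The scripts were tested on simulated data. No 2 replicate libraries agreed within counting noise (chi-square per degree of freedom of 10.9 or more), so the spread between libraries, not depth, set the precision.

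The 10 genes and the wider list were chosen with earlier results of these data known. From the wider list, up to 4 genes past the threshold in each comparison and role, by smallest adjusted p, were open to naming. SESN3 in Huh7 V2084D minus WT was named after its values were seen, as the 1 tested FOXO-regulated gene that did not pass there, and likewise SESN1 in both Huh7 contrasts described and FOXO3 and PCK1 in shSTUB1 minus V2084D. Genes like IRS4 are the 5 protein-coding genes with the highest Pearson r. Replicate numbers were not used as pairs: of 12 comparisons, 1 had a correlation of deviations above 0.1 in all 3 pairs. The alternatives tried were a replicate block, the compared groups alone, DESeq2 1.42.0, RLE size factors, no filter on low counts, and each library left out.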

Additional observations from a re-analysis of the deposited data

Results flagged for a closer look

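The V2084D minus WT difference in libraries labelled Huh7, minus that in 293T, passed the edgeR threshold in the joint model for 7 of the 87 genes examined, where 9.72% of all genes passed. As a share this was not above that of all genes, and nothing is read from the count. IRS4, described without a p-value, was at -5.12 (log2, SE 0.45). EIF4EBP1 was at 1.76 (SE 0.32; adjusted p = 0.00106) and DEPTOR at 1.25 (SE 0.27; adjusted p = 0.00383). In 293T alone their V2084D minus WT differences were -0.33 and 0.10, neither past the threshold. IGF2BP1 was at -1.14 (SE 0.21; adjusted p = 0.00134), with 0.43 in 293T. The adaptor gene GAB2 was at 1.17 (SE 0.33; adjusted p = 0.0261), RPTOR, which encodes a subunit of an mTOR complex, at -0.95 (SE 0.28; adjusted p = 0.0331) and CCNG2 at 0.71 (SE 0.21; adjusted p = 0.0327). The calls of GAB2, RPTOR and CCNG2 were lost in 7, 9 and 10 of 16 alternative settings. The line, its deposited table and the level of ARID1A cannot be told apart in this difference.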

How the results depend on the processing

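The V2084D minus WT difference of IRS4 in Huh7 stayed between -4.69 and -4.46 over 11 alternative settings. Of 1860 alternative values for the differences of the 10 genes, 1828 moved by less than the spread between replicates, 32 moved by more and 0 were reversed after a call. For K2025E minus KO in 293T, the count of the 10 genes past the threshold was 6; it was 1 with the compared groups alone, 0 without K2025E libraries 2 and 3, and 0 to 8 when single libraries were left out. For K2025E minus WT it was 0, and 0 to 2 with single libraries left out. In Huh7 it was 8 in place of 5 for V2084D minus WT with the compared groups alone. With single libraries left out it was 2 to 5 in place of 4 for shSTUB1 minus V2084D, and 3 to 5 in place of 5 for shSTUB1 minus WT. The cause was not tested. Omission of libraries with doubtful ARID1A or principal component scores was chosen after seeing the data. Counts over all genes for K2025E minus KO, 2989, ranged from 1 to 5270, and those for shSTUB1 minus V2084D, 4850, from 2887 to 5741; for K2025E minus WT, 1 gene was called, and 0 to 1048 over the alternatives. With a replicate block the count of the 10 genes was 7 for K2025E minus KO, 3 for shSTUB1 minus V2084D and 4 for shSTUB1 minus WT, and it was the same as without the block in the 9 other comparisons within a line. Comparisons between lines had no block because the lines share no samples by number. Depth did not limit these genes, since the lowest count of any of the 10 in any library was 140.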
